A study of Mus musculus with 8 samples.

Results

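The miR-200 family was examined in small-RNA sequencing of mouse liver. Its members were 7 mature miRNAs matched by their full names, mmu-miR-200a-3p, mmu-miR-200a-5p, mmu-miR-200b-3p, mmu-miR-200b-5p, mmu-miR-429-3p, mmu-miR-200c-3p and mmu-miR-141-3p, out of 1341 known miRNAs listed in at least 1 library. All 7 were listed in all 8 libraries, none stood in more than 1 row of a file, and all 7 passed the filter of at least 1 tag per 1000000 tags of the library (CPM) in at least 4 libraries, as did 475 of the 1341. The libraries came from the left liver lobe of 4 wild-type (WT) and 4 Snd1 knockout (KO) male mice, 1 library per mouse. The mice were 8 to 12 weeks old, were not fasted and were killed around noon. Snd1 encodes a staphylococcal nuclease and Tudor domain protein that can degrade miRNAs in human cells. The KO allele lacks the first exon in the whole body: a floxed exon, made in 129/Sv-derived R1 embryonic stem cells, was removed with a CAG promoter-driven Cre, the line was backcrossed to C57BL/6N, and littermates came from heterozygous parents. Since the libraries hold RNA of 18 to 30 bases, the loss of Snd1 mRNA cannot be read in them.

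The miR-200 family is the vertebrate branch of the conserved miR-8 family. Its miRNAs are abundant in epithelia, where they repress Zeb1 and Zeb2, the transcription factors that silence E-cadherin and drive the epithelial to mesenchymal transition, and Zeb1 and Zeb2 in turn repress the miR-200 genes. In liver the family is known from biliary epithelial cells, which line the bile ducts, and is low in hepatocytes. The primary transcript is cut into a hairpin and the hairpin into a duplex, of which 1 strand, the guide, usually stays in Argonaute, and bases 2 to 8 of the guide, the seed, choose its targets. Because whole liver was sequenced, fewer cells of a type and less RNA per cell cannot be told apart. The mRNA markers of bile ducts, such as Krt19, Sox9 and Epcam, are not measured in small-RNA libraries, so the cells from which these tags came could not be checked.

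The 5 hairpins lie in 2 clusters, all on the minus strand of GRCm38.p6. On chromosome 4, Mir200b at chr4:156055681-156055750, Mir200a at chr4:156054896-156054985 and Mir429 at chr4:156053905-156053987 span 1846 bases. All 3 are within introns of Ttll10, a protein-coding gene of the same strand. They are also within the transcript Gm13648, in which Mir429 overlaps an exon and Mir200a and Mir200b are intronic. On chromosome 6, Mir200c at chr6:124718322-124718390 and Mir141 at chr6:124717914-124717985 span 477 bases within an intron of the noncoding transcript Gm15884, and Mir141 also overlaps an exon of Gm29008. Snd1 is on chromosome 6 too, 95.8 Mb from Mir141.

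The 5 guide strands, all 3p arms, are shown to compare their seeds, with RefSeq sequences of GRCm38.p6 written 5′ to 3′ and the seed in capitals.
mmu-miR-200b-3p: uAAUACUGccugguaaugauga
mmu-miR-200c-3p: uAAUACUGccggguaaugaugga
mmu-miR-429-3p: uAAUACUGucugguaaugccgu
mmu-miR-200a-3p: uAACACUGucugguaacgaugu
mmu-miR-141-3p: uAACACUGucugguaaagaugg
The first 3 shared a seed carried by no other of the 1679 mouse mature miRNAs in the RefSeq table, and miR-200a-3p and miR-141-3p shared the other seed, likewise carried by no further miRNA. The seeds differed at 1 position, U4C from miR-200b-3p to miR-200a-3p, counted from the 5′ end of the miRNA named first. Each seed therefore had a member in each cluster. These pairs across the clusters were also close outside the seed, with U11G and A22G from miR-200b-3p to miR-200c-3p, which is 1 base longer, and C17A and U22G from miR-200a-3p to miR-141-3p. How tags that match several loci were counted is not stated, and each pair has bases that tell its members apart. The 5p arms of the family's hairpins, the strands that pair with the guides, are shown because they set the arm shares given further on.
mmu-miR-200b-5p: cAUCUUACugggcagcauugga
mmu-miR-200a-5p: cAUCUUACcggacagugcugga
mmu-miR-429-5p: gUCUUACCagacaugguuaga
mmu-miR-200c-5p: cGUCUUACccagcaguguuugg
mmu-miR-141-5p: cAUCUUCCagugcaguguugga
Of these 5, miR-200b-5p and miR-200a-5p had the same seed.

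The libraries held 16223610 to 27526162 tags, and 1 tag was worth 0.0363 to 0.0616 CPM. The libraries fell into 2 sets by the share of known miRNAs among all tags, which was 75.9% to 78.7% in the higher set (WT replicates 1 and 2, KO replicates 2 and 3). It was 57.9% to 67.6% in the lower set, made of the other libraries. The sets hold 2 libraries of each genotype. The file of KO replicate 1 lacks the rows of the genomic classes, and its values add up to 648120 CPM. Hepatocyte miRNAs took 246456 to 384408 CPM, and the pancreatic miR-216a-5p, miR-216b-5p and miR-217-5p together took at most 0.88 CPM. The replicates were separate mice, and tags were PCR reads without molecular identifiers, so the counting intervals given here cover counting error only.

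The family was a minor part of the liver's miRNAs. Its 7 members together made 504.9, 316.7, 281.8 and 438.2 CPM in WT replicates 1 to 4 and 229.2, 383.5, 361.7 and 306.3 CPM in KO replicates 1 to 4, or 0.0396% to 0.0648% of the known miRNA tags. miR-122-5p, the main hepatocyte miRNA, had 516 to 980 times the family's summed level. The family sum was highest in WT replicate 1 and lowest in KO replicate 1, and the genotypes overlapped.

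The guide strands of chromosome 4 were the most abundant. miR-200a-3p, of the AACACUG seed, had 183.8, 71.2, 82.3 and 140.8 CPM in WT replicates 1 to 4 and 63.1, 139.7, 110.5 and 104.7 CPM in KO replicates 1 to 4. It was highest in WT replicate 1 and lowest in KO replicate 1, and ranked 125th of the 475 tested miRNAs by mean level. miR-200b-3p, of the AAUACUG seed, had 120.3, 107.6, 55.7 and 110.6 CPM in WT and 44.5, 83.3, 81.3 and 66.0 CPM in KO. Of the 4 WT libraries 3 were above every KO library, and WT replicate 3 was below 3 of the 4 KO libraries. miR-429-3p, of the same seed, had 123.7, 74.4, 77.4 and 78.3 CPM in WT and 42.7, 86.1, 93.7 and 67.0 CPM in KO. Its WT replicate 1 stood well above the other WT libraries, and 2 KO libraries were above the other 3 WT libraries.

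The guide strands of chromosome 6 were lower. miR-200c-3p had 44.8, 38.3, 40.8 and 72.6 CPM in WT and 52.9, 49.2, 51.3 and 42.9 CPM in KO. WT replicate 4 was the highest, WT replicates 2 and 3 were the lowest, and the KO libraries lay close together between them. miR-141-3p had 19.3, 16.5, 15.4 and 24.3 CPM in WT and 13.9, 18.7, 18.8 and 15.5 CPM in KO. It too was highest in WT replicate 4, and lowest in KO replicate 1.

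The 5p arms were rare. miR-200b-5p had 7.34, 4.78, 5.55 and 6.09 CPM in WT and 4.47, 2.72, 3.44 and 5.76 CPM in KO. Of the KO libraries 3 were below all 4 WT libraries, and KO replicate 4 was within the WT range. miR-200a-5p had 5.71, 3.94, 4.68 and 5.40 CPM in WT and 7.65, 3.74, 2.59 and 4.52 CPM in KO. KO replicate 1, the lowest library for all 3 guide strands of chromosome 4, was the highest for this arm.

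**Figure D1:**
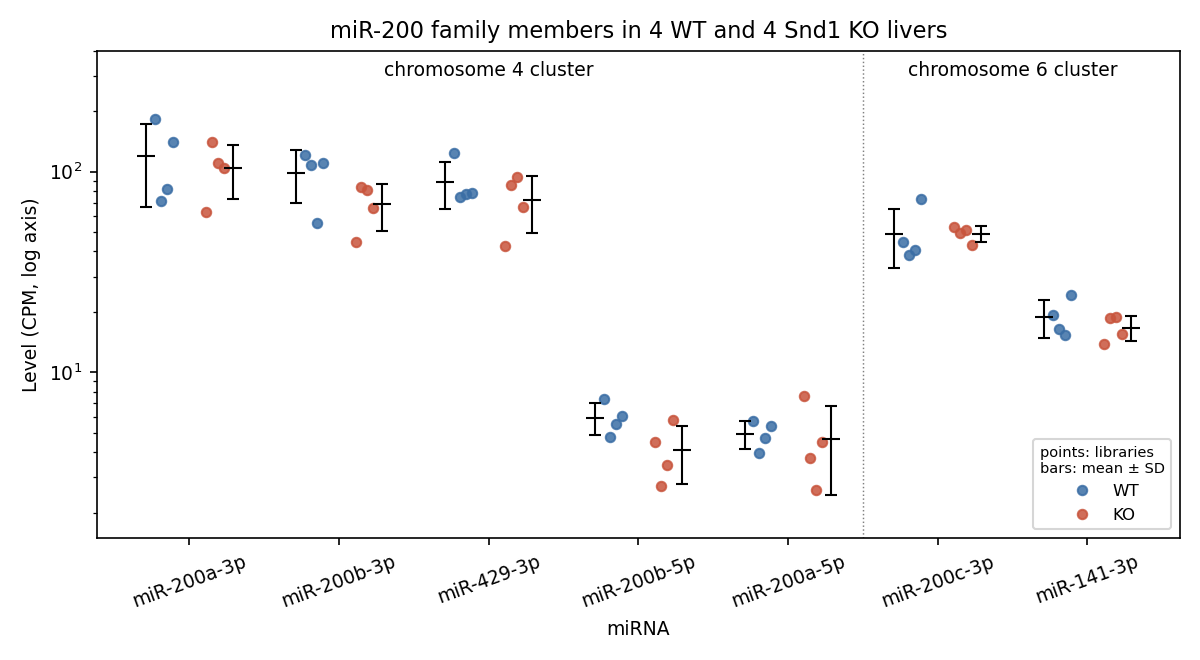
Level of each member in each library, in CPM on a log axis, with WT libraries in blue, KO libraries in red and black bars for the mean ± SD of 4 libraries. The 3p arms lie above the 5p arms by more than the spread between libraries, and for every member the WT and KO points overlap, as for miR-200b-3p (55.7 to 120.3 CPM in WT and 44.5 to 83.3 CPM in KO).

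By mean over the 8 libraries the order was miR-200a-3p (112.0 CPM), miR-200b-3p (83.7), miR-429-3p (80.4), miR-200c-3p (49.1), miR-141-3p (17.8), miR-200b-5p (5.02) and miR-200a-5p (4.78). Each tag stands for 1 small RNA whatever its length, so these levels needed no division by length, although adaptor ligation can favor some sequences over others and its effect was not tested. miR-200a-3p was above miR-200b-3p in 7 of 8 libraries, with a mean log2 ratio of 0.41 and an SD of 0.43, so that these neighbors did not differ beyond their spread. miR-200b-3p was above miR-429-3p in 3 of 8 libraries (mean log2 ratio 0.04, SD 0.34), and those neighbors were within their spread as well. miR-429-3p exceeded miR-200c-3p in 7 of 8 libraries (mean log2 ratio 0.68, SD 0.55), a step larger than its SD, though the ranges of the levels overlapped. The next steps were larger against their spread. miR-200c-3p was above miR-141-3p in 8 of 8 libraries (mean log2 ratio 1.46, SD 0.23) and miR-141-3p above miR-200b-5p in 8 of 8 (mean log2 ratio 1.87, SD 0.51), with no overlap of the levels in either case. The 5p arms, miR-200b-5p and miR-200a-5p, did not differ beyond their spread (mean log2 ratio 0.07, SD 0.44).

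For the 3p arms the number of tags was not what limited these values, while for the 5p arms counting error was a larger part of the spread in WT. Counts per library ran from 904 to 2949 tags for miR-200b-3p, from 1335 to 4506 for miR-200a-3p, from 926 to 3034 for miR-429-3p, from 662 to 1359 for miR-200c-3p and from 249 to 515 for miR-141-3p. The 5p arms had 75 to 180 tags for miR-200b-5p and 67 to 166 for miR-200a-5p. The coefficient of variation (CV) between WT mice was 44.0% for miR-200a-3p, of which counting error alone would give 1.97%. miR-200c-3p had a CV of 32.3% in WT and 9.01% in KO, against counting errors of 3.12% and 2.87%. The CV of miR-200a-5p was 16.0% in WT and 46.9% in KO, against 9.76% and 9.48%. Whether the spread itself differed between the genotypes was not tested.

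The Snd1 KO and WT livers were compared to ask whether losing this nuclease changed the family's level. No member passed the test. The test was limma with a mean-variance trend on log2(CPM + 1), fitted over the 475 miRNAs with Benjamini-Hochberg adjustment, and log2 fold changes are KO minus WT on that scale, which understates the change of low miRNAs. 0 of 7 members were called at an adjusted p under 0.05, against 0% of all tested miRNAs, whose lowest adjusted p was 0.262. Nor did any member have an unadjusted p under 0.05, which 20 of the 475 had (4.21%), 9 of them lower in KO (1.89%). No member had KO values all below or all above the WT values. Over all tested miRNAs 8 were apart in this way with KO lower (1.68%) and 6 with KO higher (1.26%). The median log2 fold change was -0.16 over the 7 members and -0.11 over the 475, of which 279 were negative and 196 positive.

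The lowest estimate was that of miR-200b-3p, with 98.5 ± 29.1 CPM in WT (SD, n = 4) and 68.8 ± 17.9 CPM in KO (SD, n = 4) and a log2 fold change of -0.49 (SE 0.35, limma adjusted p = 0.853). Its 95% interval ran from -1.28 to 0.29. miR-200b-5p, of the same hairpin, had 5.94 ± 1.08 CPM in WT and 4.10 ± 1.32 CPM in KO (log2 fold change -0.47, SE 0.29, limma adjusted p = 0.853, interval -1.11 to 0.17). miR-429-3p had 88.5 ± 23.6 and 72.4 ± 22.8 CPM (log2 fold change -0.31, SE 0.34, limma adjusted p = 0.971, interval -1.07 to 0.44). All 3 estimates kept their sign when any 1 library was left out.

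The arms of Mir200a had smaller estimates. miR-200a-3p had 119.5 ± 52.6 CPM in WT and 104.5 ± 31.6 CPM in KO (log2 fold change -0.14, SE 0.39, limma adjusted p = 0.971, interval -1.02 to 0.73). The sign of this value turned without WT replicate 1 (0.10) and without KO replicate 1 (0.08). miR-200a-5p had 4.93 ± 0.79 and 4.63 ± 2.17 CPM (log2 fold change -0.14, SE 0.32, limma adjusted p = 0.971), and 0.05 without KO replicate 3.

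On chromosome 6, miR-200c-3p had the same mean level in both genotypes, 49.1 ± 15.9 CPM in WT and 49.1 ± 4.42 CPM in KO. Its log2 fold change was 0.04 (SE 0.30, limma adjusted p = 0.976), with an interval from -0.63 to 0.71, and it was -0.06 without WT replicate 2 and -0.03 without WT replicate 3. miR-141-3p, from the neighboring hairpin, had 18.9 ± 4.00 and 16.7 ± 2.42 CPM (log2 fold change -0.16, SE 0.29, limma adjusted p = 0.971, interval -0.80 to 0.49). A fall to 0.5 of the WT mean, put on the same log2(CPM + 1) scale, was outside the 95% interval of miR-200c-3p and miR-141-3p and inside that of the other 5 members.

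**Figure D2:**
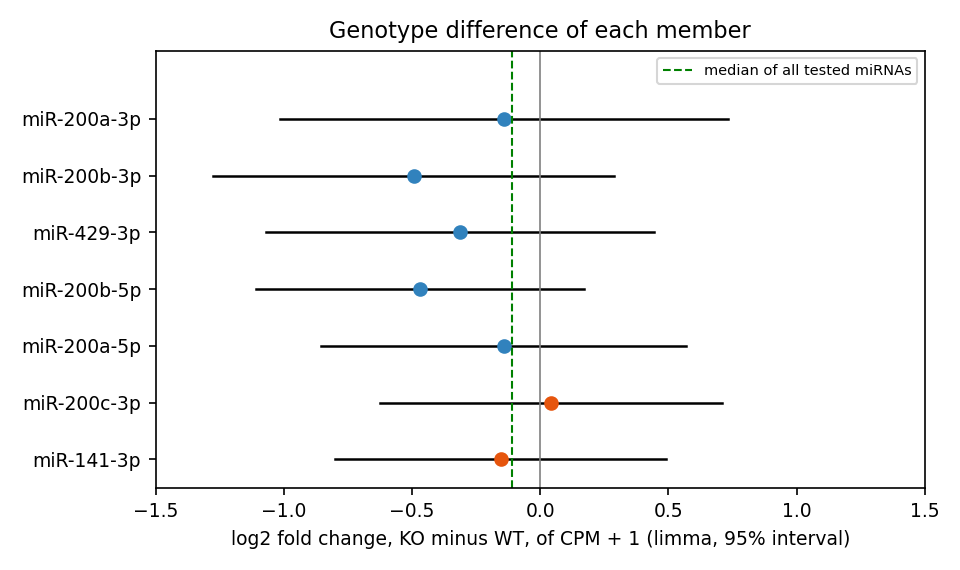
Log2 fold change of each member, KO minus WT, of CPM + 1 from limma, with points for the estimate (blue for chromosome 4, orange for chromosome 6) and lines for the 95% interval. All 7 intervals hold 0, and the dashed line marks the median of the 475 tested miRNAs at -0.11.

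Most members varied less between mice than the median miRNA. The residual SD of log2(CPM + 1) within genotypes was 0.24 for miR-141-3p, 0.31 for both miR-200c-3p and miR-200b-5p, 0.40 for miR-200a-5p, 0.43 for miR-429-3p, 0.46 for miR-200b-3p and 0.56 for miR-200a-3p. The median over the 475 was 0.52. miR-141-3p was among the steadier, since 90.9% of the tested miRNAs had a larger SD, and miR-200a-3p was near the middle (44.4%).

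When the tags of the 4 libraries of a genotype were pooled and compared by counting error alone, with the formula of the study's tool, 4 members were called lower in KO, miR-200b-3p, miR-200b-5p, miR-200a-3p and miR-429-3p, against 17.9% of the 1341 known miRNAs. miR-200c-3p was called higher in KO. Of the 1341 known miRNAs this comparison called 452 in either direction, 240 of them lower in KO. The pooled log2 ratios of these 5 were -0.48, -0.50, -0.11, -0.22 and 0.09. That comparison leaves out the spread between mice, which for miR-200a-3p was the larger part of the error.

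The known miRNA share moved with the members' levels as well. Between the 4 libraries of higher share and the 4 of lower share, the mean log2(CPM + 1) differed by 0.56 for miR-200b-3p, 0.52 for miR-429-3p and 0.35 for miR-200a-3p, by -0.28 for miR-200b-5p and -0.41 for miR-200a-5p, and by -0.16 for miR-200c-3p and 0.11 for miR-141-3p. Within the higher and the lower set, each with 2 libraries of a genotype, the log2 difference of KO from WT was -0.46 and -0.53 for miR-200b-3p, -0.77 and -0.16 for miR-200b-5p, and -0.09 and -0.53 for miR-429-3p. These members were lower in KO in both sets. For the others the sign differed between the sets, with 0.12 and -0.40 for miR-200a-3p, -0.48 and 0.20 for miR-200a-5p, 0.27 and -0.19 for miR-200c-3p, and 0.07 and -0.38 for miR-141-3p. The part of the known miRNA share in these values was not tested.

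The clusters were then compared with each other. The sum of the 5 members of chromosome 4 was 440.8, 261.9, 225.7 and 341.3 CPM in WT replicates 1 to 4 and 162.4, 315.6, 291.6 and 248.0 CPM in KO replicates 1 to 4. The sum of miR-200c-3p and miR-141-3p was 64.1, 54.8, 56.2 and 96.9 CPM in WT and 66.8, 67.9, 70.1 and 58.3 CPM in KO. The chromosome 4 sum was the larger in all 8 libraries, and no library of one sum reached the range of the other. The ratio of the sums was 6.88, 4.78, 4.02 and 3.52 in WT and 2.43, 4.65, 4.16 and 4.25 in KO. WT replicate 1 and KO replicate 1 marked the ends, and the other 6 libraries lay between 3.52 and 4.78.

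Counting error did not cover the distance between those ends. The chromosome 4 members made 87.3% of the family's tags in WT replicate 1 (95% Wilson interval 86.7% to 87.9%) and 70.8% in KO replicate 1 (69.6% to 72.1%). In the other 6 libraries the share was 77.9% to 82.7%. By genotype, the chromosome 4 sum was 317.4 ± 95.4 CPM in WT and 254.4 ± 67.4 CPM in KO (SD, n = 4 each), a log2 difference of -0.31 where the spread within genotypes was an SD of 0.43. The chromosome 6 sum was 68.0 ± 19.7 and 65.8 ± 5.16 CPM, a log2 difference of -0.01 (SD 0.28). The ratio was 4.80 ± 1.48 in WT and 3.87 ± 0.98 in KO, a log2 difference of -0.30 (SD 0.42), and -0.09 to -0.43 with any 1 library left out. Each of these differences was smaller than the spread between mice, and for the chromosome 6 sum the sign turned with the library left out (-0.10 to 0.17).

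**Figure D3:**
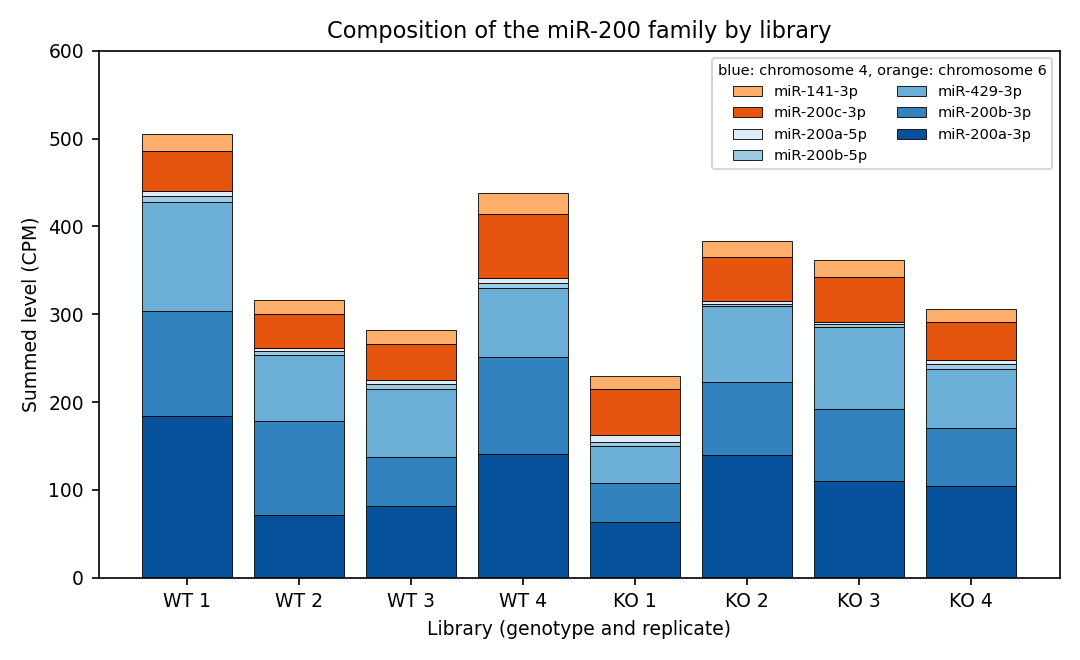
Summed level of the family in each library in CPM, stacked by member, with chromosome 4 members in blue and chromosome 6 members in orange. The total runs from 229.2 CPM in KO replicate 1 to 504.9 CPM in WT replicate 1, and the orange part varies less, from 54.8 to 96.9 CPM.

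Ratios between members showed which pairs were steady. miR-200c-3p was 2.32 to 3.81 times miR-141-3p of the same cluster, with a CV of 16.9% over the 8 libraries. Within chromosome 4, miR-200a-3p was 0.66 to 1.68 times miR-200b-3p and miR-429-3p was 0.69 to 1.39 times miR-200b-3p (CV 22.9% and 22.7%). Between the clusters, the pairs of 1 seed had larger CVs. miR-200b-3p was 0.84 to 2.81 times miR-200c-3p (CV 37.9%), and miR-200a-3p was 4.32 to 9.53 times miR-141-3p (CV 27.4%). By highest over lowest ratio the order differed. It was 3.34 for miR-200b-3p to miR-200c-3p and 2.20 for miR-200a-3p to miR-141-3p, against 2.53 for miR-200a-3p to miR-200b-3p within chromosome 4. Grouped by seed, the AAUACUG miRNAs made 58.0% to 71.5% of the 5 guide strands' CPM. The highest share was in WT replicate 2, which had the lowest ratio of miR-200a-3p to miR-200b-3p, and the other 7 libraries lay at 58.0% to 64.5%.

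Members of a cluster come from 1 primary transcript or from neighboring ones, so their levels across mice were correlated, over the 8 libraries and on the log2(CPM + 1) scale, for the 10 pairs of guide strands. All points share their library's total. Within clusters Pearson's r was 0.66 to 0.80 (4 pairs, median 0.71), and between clusters it was -0.11 to 0.78 (6 pairs, median 0.47); whether the correlations themselves differed was not tested. The highest was miR-200a-3p with miR-429-3p at r = 0.80 (exact permutation p = 0.0123, 0.0660 adjusted over 10 pairs) and Spearman's rho of 0.83 (exact permutation p = 0.0154, adjusted 0.0513). Without KO replicate 1 and WT replicate 1, the farthest from the median, r was 0.37. Leaving out the extreme libraries narrows the range, which can lower r by itself, so the fall does not show that the relation rested on them. miR-200b-3p with miR-429-3p had r = 0.76 (exact permutation p = 0.0229, adjusted 0.0660) and rho of 0.67 (exact permutation p = 0.0831, adjusted 0.138), and r was 0.53 without KO replicate 1 and WT replicate 3. miR-200b-3p with miR-200a-3p had r = 0.67 (exact permutation p = 0.0747, adjusted 0.126) and rho of 0.76 (exact permutation p = 0.0368, adjusted 0.0735), and r was 0.28 without the same libraries. No Pearson correlation among the 10 passed the threshold after adjustment.

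miR-141-3p had r of 0.60 to 0.78 with the miRNAs of chromosome 4, none of which passed the threshold after adjustment, while its rho passed with miR-200b-3p and miR-200a-3p. miR-141-3p with miR-200b-3p had r = 0.78 (exact permutation p = 0.0216, adjusted 0.0660) and rho of 0.88 (exact permutation p = 0.00724, adjusted 0.0362), and r was 0.55 without KO replicate 1 and WT replicate 3. With miR-200a-3p, the miRNA of its own seed, miR-141-3p had r = 0.76 (exact permutation p = 0.0264, adjusted 0.0660) and the same rho of 0.88 (exact permutation p = 0.00724, adjusted 0.0362). Without KO replicate 1 and WT replicate 1 this r was 0.73, the least moved of the pairs with r over 0.7. With miR-429-3p its r was 0.60 (exact permutation p = 0.109, adjusted 0.156) and rho 0.79 (exact permutation p = 0.0279, adjusted 0.0698), and r was 0.41 without the same libraries.

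miR-200c-3p stood apart from the chromosome 4 guides. It had r = 0.13 with miR-200b-3p (exact permutation p = 0.768, adjusted 0.787), 0.33 with miR-200a-3p (exact permutation p = 0.442, adjusted 0.553) and -0.11 with miR-429-3p (exact permutation p = 0.787, adjusted 0.787). Its rho with them was 0.02, 0.31 and 0.14 (exact permutation p = 0.977, 0.462 and 0.752). Without the farthest libraries these r were 0.19, 0.81 and 0.34, so the low value with miR-200a-3p rested on WT replicate 1 and KO replicate 1. With miR-141-3p, its neighbor, r was 0.66 (exact permutation p = 0.0753, adjusted 0.126) and rho 0.36 (exact permutation p = 0.389, adjusted 0.556), and r was 0.08 without WT replicates 2 and 4. Many miRNAs outside the family had a higher r with a member than its relatives had. Ranked by r among the 474 other tested miRNAs, the nearest relative of miR-200b-3p was miR-141-3p at 46, followed by miR-429-3p at 51 and miR-200a-3p at 74. For miR-200a-3p, miR-429-3p ranked 3, miR-141-3p 8 and miR-200b-3p 19. For miR-429-3p the ranks were 12 for miR-200a-3p, 22 for miR-200b-3p and 76 for miR-141-3p. For miR-141-3p they were 10 for miR-200b-3p, 13 for miR-200a-3p, 36 for miR-200c-3p and 50 for miR-429-3p. For miR-200c-3p, miR-141-3p ranked 13 and the chromosome 4 guides ranked 104 to 368.

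The sets of higher and lower known miRNA share hold 4 libraries each, too few for an r within a set. With each value centered on the mean of its set, r over the 8 libraries was 0.61 to 0.80 for the 4 pairs within a cluster. Between clusters it was 0.81, 0.74 and 0.60 for miR-200b-3p, miR-200a-3p and miR-429-3p with miR-141-3p. For the same 3 guides with miR-200c-3p it was 0.40, 0.48 and 0.11.

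**Figure D4:**
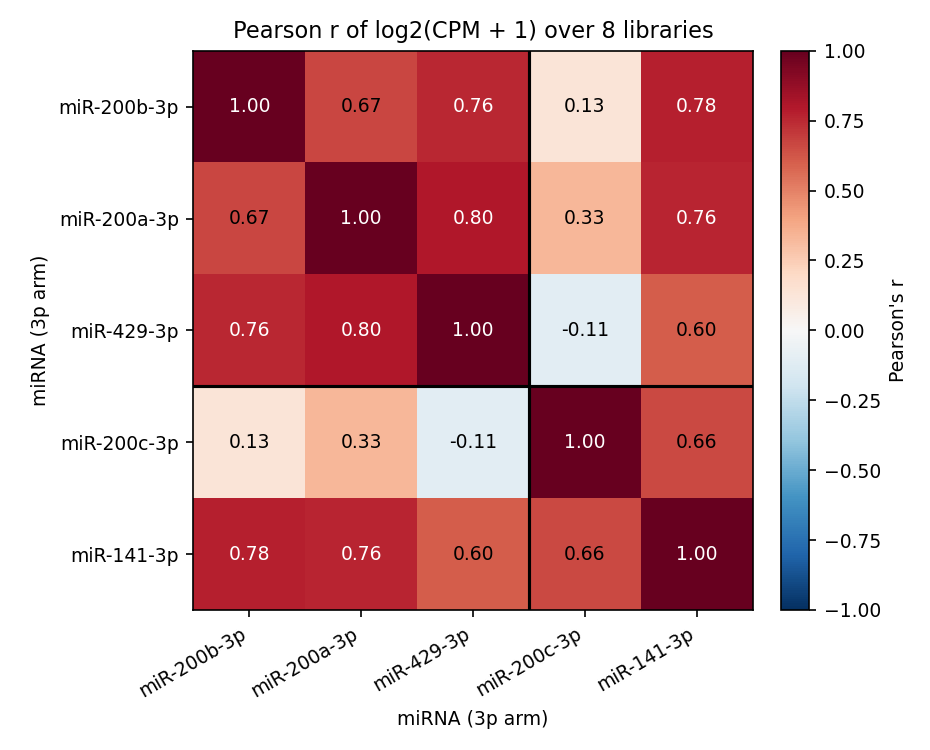
Pearson's r of log2(CPM + 1) over 8 libraries for each pair of guide strands, from -1 (blue) to 1 (red), with black lines between the clusters. The miR-200c-3p row is pale against the chromosome 4 miRNAs (-0.11 to 0.33), and the miR-141-3p row is dark throughout (0.60 to 0.78).

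Among the 468 tested miRNAs outside the family, those most like each cluster sum were listed by r over the 8 libraries, as a description. For the chromosome 4 sum these were miR-107-5p (r = 0.91, 5.30 to 11.8 CPM), miR-1191a (r = 0.90, 13.5 to 31.0 CPM) and miR-25-3p (r = 0.90, 125.0 to 322.2 CPM), and 14 miRNAs had r over 0.8. For the chromosome 6 sum they were miR-3064-5p (r = 0.89, 1.63 to 2.40 CPM), miR-669b-5p (r = 0.84, 3.94 to 13.7 CPM) and miR-466c-5p (r = 0.76, 0.83 to 1.76 CPM), and 2 had r over 0.8.

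The arms of the hairpins were far from even. In miR-200a the 5p arm made 3.01%, 5.24%, 5.38% and 3.69% of both arms in WT replicates 1 to 4 and 10.8%, 2.61%, 2.29% and 4.14% in KO replicates 1 to 4. KO replicate 1 was the highest, with a Wilson interval of 9.35% to 12.5% that no other library's interval met. In miR-200b it made 5.75%, 4.25%, 9.06% and 5.22% in WT and 9.13%, 3.17%, 4.06% and 8.02% in KO. The extremes were again within KO, replicate 1 with an interval of 7.54% to 11.0% and replicate 2 with 2.53% to 3.95%. The genotype means, 6.07% ± 2.09 in WT and 6.09% ± 2.93 in KO for miR-200b, were close against the SD.

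The 5p share of miR-200b moved with the known miRNA share of the library, and that of miR-200a less clearly. For miR-200b the 5p share was 3.16% to 5.75% in the 4 libraries of higher known miRNA share and 5.22% to 9.13% in the 4 of lower share (means 4.31% ± 1.07 and 7.86% ± 1.83). For miR-200a it was 2.29% to 5.24% and 3.69% to 10.8% (means 3.29% ± 1.34 and 6.01% ± 3.28), where the 10.8% was KO replicate 1. For both hairpins the ranges of the sets overlapped. The part of the known miRNA share in the arm shares was not tested.

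**Figure D5:**
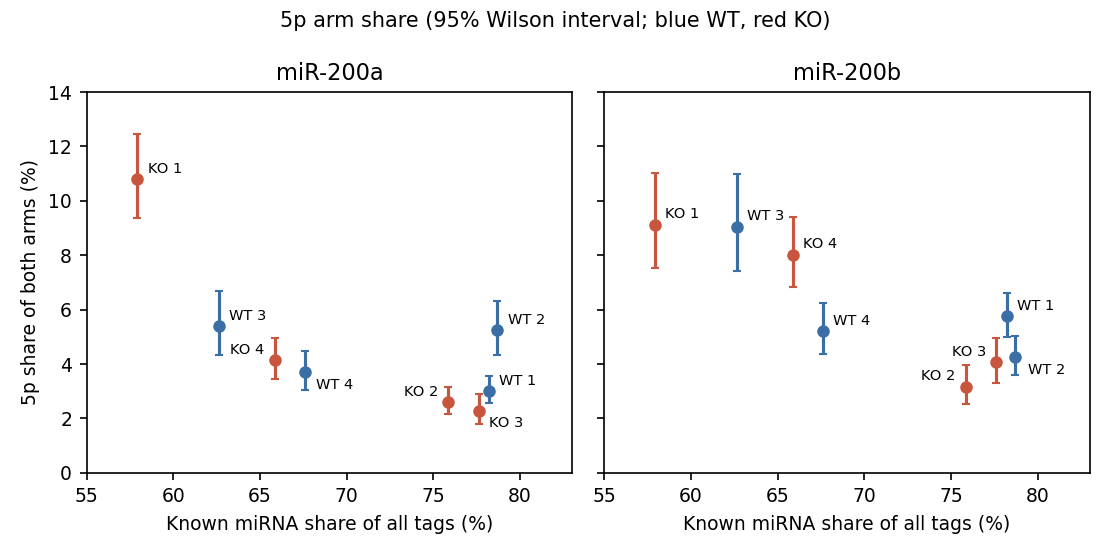
Share of the 5p arm in both arms of miR-200a (left) and miR-200b (right), in percent, against the known miRNA share of all tags in each library, with 95% Wilson intervals, WT in blue and KO in red. In miR-200b 3 of the 4 libraries on the left of the axis lie above 8% and all 4 on the right lie below 6%.

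The 5p arms of the other hairpins were near the limit of detection. miR-141-5p was listed in all 8 libraries at 0.04 to 0.32 CPM, which is 1 to 6 tags, or 0.24% to 1.63% of both arms. miR-200c-5p was listed in 5 libraries, with 1 to 5 tags in each (0.04 to 0.19 CPM). miR-429-5p was listed in none. A count of 0 allows up to 3 tags, or 0.109 to 0.185 CPM in these libraries.

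The files also list tags that matched the Rfam precursor family of mir-8, mir-141 and mir-200 (RF00241), apart from the mature rows. Its level was 48.2, 29.6, 26.2 and 46.5 CPM in WT replicates 1 to 4 and 19.3, 33.0, 32.9 and 24.5 CPM in KO replicates 1 to 4, and the genotypes overlapped. It followed the mature sum, highest in WT replicate 1 and lowest in KO replicate 1. As a share of the family's mature CPM it was 9.54%, 9.33%, 9.30% and 10.6% in WT (9.69% ± 0.62, n = 4) and 8.42%, 8.59%, 9.10% and 7.98% in KO (8.52% ± 0.46, n = 4). Here the genotypes did not overlap, though WT replicate 3 at 9.30% and KO replicate 3 at 9.10% were close. This ratio was chosen after its values were seen, so it was given no test. For no other sum or ratio computed for the family were the genotypes apart. The libraries hold RNA of 18 to 30 bases and the hairpins have 69 to 90, so these tags are not whole hairpins. For all Rfam miRNA precursor entries together the share of the known miRNA CPM was 4.52% to 5.24% in WT and 4.48% to 5.81% in KO, which overlapped.

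Other miRNAs of epithelia were set beside the family. The list of 7 (miR-31-5p, miR-203-3p, miR-182-5p, miR-183-5p, miR-96-5p, miR-375-3p and miR-205-5p) was tested whole. limma called 0 of them at an adjusted p under 0.05, and 1, miR-182-5p, had an unadjusted p under 0.05, against 4.21% of all tested miRNAs. Of the 7 log2 fold changes 6 were positive, against 41.3% of all tested miRNAs, and the median was 0.59. Of these 6, 3 come from the single miR-183 cluster, which the study had already reported as raised in KO from these same libraries. The count of 6 is therefore no independent evidence. miR-31-5p, found in keratinocytes and other epithelial cells, was the most abundant at 1702.7 to 2721.4 CPM (log2 fold change 0.07, limma adjusted p = 0.971). miR-203-3p, of stratified epithelium, had 310.9 to 791.5 CPM (-0.34, limma adjusted p = 0.944). miR-182-5p, of the miR-183 cluster that sensory epithelia use, had 56.2 to 294.5 CPM (1.29, limma adjusted p = 0.724), and its cluster mates miR-183-5p and miR-96-5p had 21.8 to 169.0 CPM (0.97, limma adjusted p = 0.842) and 8.60 to 87.6 CPM (0.90, limma adjusted p = 0.853). miR-375-3p, of endocrine and gut epithelium, had 11.0 to 23.4 CPM (0.59, limma adjusted p = 0.842) and miR-205-5p, of basal epithelium, 0.65 to 4.05 CPM (0.34, limma adjusted p = 0.954). The summed level of the list was 2483 to 2984 CPM in WT and 2280 to 3387 CPM in KO.

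Markers of other liver cell types also overlapped between genotypes. The summed leukocyte miRNAs were 1346 to 2118 CPM in WT and 1738 to 2092 CPM in KO, and limma called 0 of the 7. Of these, 1 had an unadjusted p under 0.05, against 4.21% of all tested miRNAs. It was miR-223-3p (log2 fold change -0.80, limma adjusted p = 0.842). miR-146a-5p, at 907.8 to 1405.1 CPM, was the largest part of this sum, and the members differed in sign, with 2 of 7 log2 fold changes positive. The mesenchymal miRNAs were 6343 to 9255 and 7664 to 9898 CPM, with 0 of 6 called. The endothelial miR-126a-3p and miR-126a-5p made 6236 to 19516 CPM in WT and 5812 to 17880 CPM in KO, with 0 of 2 called. Erythroid miRNAs had 0 of 4 called and all 4 log2 fold changes negative, and were 8089 to 17397 CPM in WT and 7363 to 15235 CPM in KO. The hepatocyte sum ran from 246456 to 376090 CPM in WT and from 252881 to 384408 CPM in KO, with 0 of 7 called and a median log2 fold change of -0.25. None of the mesenchymal, endothelial, erythroid and hepatocyte miRNAs had an unadjusted p under 0.05.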

How the data were processed

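Small RNA of 18 to 30 bases from 4 WT and 4 Snd1 KO livers had been sequenced on a BGISEQ-500. The authors filtered out contaminant and poor-quality tags, aligned the rest with Bowtie to GRCm38 (version not given in the sources used here) and deposited, for each library, tags per 1000000 of all its tags. These deposited CPM values carry the heading TPM but are not divided by length and are rounded to 2 decimals. Known miRNAs share each file with predicted miRNAs, piRNAs, Rfam entries and classes of genomic tags.

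A known miRNA missing from a file was given 0. Of 1341, the 475 with at least 1 CPM in at least 4 libraries were compared between genotypes with limma 3.58.1 in R 4.3.3, on log2(CPM + 1) with a mean-variance trend, Benjamini-Hochberg adjustment and a threshold of 0.05. limma was tested on simulated data with log2 changes of 1 and 2. That test does not show whether changes as small as the members' estimates would be called. The total of each library was taken as the one under which all values (100%) came to whole tags, within 0.0051 CPM. Tag counts are thus estimates from rounded values. In 6 of the 8 libraries the rounding is worth over 0.1 tag, and there 59.0% to 93.5% of the low values, up to 20 times the smallest, lay within 0.1 of a whole tag (100% in the other 2), with no low value farther than 0.136 tag. The recovered tags were used for Wilson intervals, limma-voom and the comparison of pooled tags. Correlations had two-sided exact permutation tests over pairings, computed in Python 3.11.15 with scipy 1.17.1. At 1 tag per 0.0363 to 0.0616 CPM counting error is small for the 3p arms.

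The alternatives were 2 other scalings, pseudocounts of 0.1 and 5, 2 other filters, limma-voom, pooled tags and the replicate number as a block. Further ones were the set of higher or lower known miRNA share as a covariate or as a split, guide strands alone in the sums, and each library left out. The miRNAs named are the 7 members, the other arms of their hairpins, the 3 miRNAs most correlated with each cluster sum and a list of other epithelial miRNAs. The members and all lists were chosen with earlier results of these data known. Mature sequences and positions are from RefSeq and host genes from GENCODE, both on GRCm38.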

Additional observations from a re-analysis of the deposited data

Results flagged for a closer look

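In WT replicate 1 the level of miR-429-3p was 123.74 CPM, against 74.39 to 78.34 CPM over the other 3 WT libraries, a gap wider than Dixon's critical value for 4 samples. Of 26 groups of 4 libraries checked in this way 1 had a library apart, and chance gives about 1.3. miR-429-3p had its log2 fold change of -0.31 moved to between -0.46 and -0.08 by leaving out 1 library.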

How the results depend on the processing

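At an adjusted p under 0.05 no member was called by limma-voom or by limma under any scaling, pseudocount, filter, covariate or left-out library. Outside the pooled comparison the members' adjusted p ranged from 0.383 to 0.999. With tags pooled within genotype 5 members and 452 of 1341 known miRNAs were called, since that comparison carries counting error only. The 1341 include the miRNAs below the filter, so these counts do not compare miRNAs of like level. With the set of higher or lower known miRNA share as a covariate 0 members and 1 known miRNA were called and 65 of 475 had an unadjusted p under 0.05. Without WT replicate 2, 1 known miRNA was called, so that the count was 0 to 1 with 1 library left out, and the members called stayed at 0. The replicate numbers were checked as pairs: the correlation of deviations was -0.46, 0.35, -0.53 and 0.07 for replicates 1 to 4. Replicates 1 and 3 each join a library of higher and a library of lower known miRNA share. The check therefore cannot decide whether the numbers mark pairs. A replicate block called 0 members and 0 of 475 miRNAs, with 15 at an unadjusted p under 0.05.

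With 1 library left out, log2 fold changes ranged from -0.75 to -0.30 for miR-200b-3p, -0.62 to -0.33 for miR-200b-5p, -0.35 to 0.10 for miR-200a-3p, -0.37 to 0.05 for miR-200a-5p, -0.46 to -0.08 for miR-429-3p, -0.06 to 0.24 for miR-200c-3p and -0.24 to -0.03 for miR-141-3p. The sign turned for miR-200a-3p without WT replicate 1 (0.10) or KO replicate 1 (0.08), for miR-200a-5p without KO replicate 3 (0.0487) and for miR-200c-3p without WT replicate 2 (-0.0596) or WT replicate 3 (-0.03), and the cause was not tested. Without WT replicate 3, 1 member had an unadjusted p under 0.05. The log2 difference ranged from -0.46 to -0.11 for the chromosome 4 sum, -0.10 to 0.17 for the chromosome 6 sum and -0.43 to -0.09 for their ratio. Scaling by median ratios moved the median of all tested miRNAs from -0.11 to -0.03 and that of the members from -0.16 to -0.07. A filter at 10 CPM left 5 members among 256 miRNAs. A count model on recovered tags was not run, since in 6 of 8 libraries the rounding of the CPM is worth over 0.1 tag. limma-voom, the pooled comparison and the Wilson intervals rest on the same estimated tags.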
